A study of Mus musculus with 16 samples.

Results

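Complement genes were followed in mouse skin under a detergent irritant, with and without Topsym. The 9 genes are C3, C1qa, C1qb, C1qc, C4b, Cfb, C2, C7 and Serping1, found by symbol among the 32078 rows of the deposited expression table, and each matched 1 row. Their rows were taken by name, and the genes were chosen with earlier results of these data known. All 9 passed the filter on low values that 19189 genes passed.

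Complement is a cascade of mostly secreted proteins that tags microbes, dying cells and debris for removal. In the classical pathway C1q, built from the chains encoded by C1qa, C1qb and C1qc, binds a target and activates the proteases C1r and C1s, which cleave C4 and C2 into a C3 convertase. The alternative pathway makes its own C3 convertase from C3 and factor B (Cfb), and both converge on C3 and then on the terminal pathway, in which C7 takes part in forming the membrane attack complex. Serping1 encodes C1 inhibitor, which blocks C1r and C1s. The liver makes most plasma complement, whereas in skin macrophages are a main source of C1q, and fibroblasts express several of the other components.

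The libraries come from whole skin of mice aged 7 weeks. Of the 8 groups, 4 carry SDS (sodium dodecyl sulfate, a detergent that irritates skin) in their name at day 0, 1, 3 or 5, and the other 4 carry SDS at the same days together with Topsym, a trade name of preparations of the glucocorticoid fluocinonide, as background that the labels do not state. Each group holds 2 libraries. The labels give 4 days of topical treatment. They leave out how application was timed against sampling and how skin of the Topsym day 0 group had been treated. All groups carry SDS in their name, so no group without it stands beside days 1, 3 and 5. Strain, sex and genotype are not given. No label ties a library to an animal, so the p-values reflect only how far the 2 libraries of each group differ, and part of that may be technical.

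Values are normalised reads, that is, read counts divided by a size factor of the library. Values with ± are the mean and SD of the 2 libraries of a group, and log2 changes, on the scale of log2(normalised reads + 1), carry their SE. Libraries held 15199656 to 32066246 reads. Day 5 stood apart in composition: the 10 highest genes took 10.3 to 14.8% of the reads in its 4 libraries and 4.91 to 7.06% in the other 12. Skin markers were present, with 10 of 10 keratinocyte and 10 of 10 fibroblast markers above 0 in every group. The summed keratinocyte markers were 2.90 and 4.04 times the level of SDS day 0 at day 5 without and with Topsym, and the summed fibroblast markers 0.0575 and 0.0294 times. A sum follows its highest genes. Between the arms at day 5, 4 of 10 keratinocyte markers were higher with Topsym and 5 lower, with a median log2 difference of -0.17. In bulk skin, fewer cells of a type and less RNA per cell cannot be told apart, and a larger share of RNA from 1 cell type lowers the values of the others. Hepatocyte markers summed to between 39.7 and 219 normalised reads in any library, with fibrinogen genes at 0 in many groups.

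The gene models place C1qa, C1qb and C1qc side by side on the minus strand of chromosome 4 of GRCm38 (GENCODE M21), from 136895917 to 136898803, 136880129 to 136886187 and 136889804 to 136893065. C4b (17: 34728380 to 34743882), Cfb (17: 34856374 to 34862518) and C2 (17: 34862604 to 34898265) lie together on chromosome 17, and C3 lies farther along it (57203970 to 57228136). C7 is on chromosome 15 (4988762 to 5063740) and Serping1 on chromosome 2 (84765387 to 84775444), all on the minus strand. C1qb and C1qc, whose values moved together most closely, and C3, which followed another course, are shown by the 300 bases around their starts, 250 before and 50 after, in RefSeq's GRCm38.p6. Promoters of 4 of the 9 genes were matched in that table. Capitals mark matches on either strand to any of 5 motifs, and base 1 is the first letter.
C1qb: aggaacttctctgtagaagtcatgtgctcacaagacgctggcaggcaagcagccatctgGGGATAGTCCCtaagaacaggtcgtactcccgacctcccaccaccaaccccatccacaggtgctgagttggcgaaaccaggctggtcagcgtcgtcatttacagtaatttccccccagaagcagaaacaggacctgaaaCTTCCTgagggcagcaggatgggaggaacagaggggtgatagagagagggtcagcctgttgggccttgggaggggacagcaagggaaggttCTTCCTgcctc
C1qc: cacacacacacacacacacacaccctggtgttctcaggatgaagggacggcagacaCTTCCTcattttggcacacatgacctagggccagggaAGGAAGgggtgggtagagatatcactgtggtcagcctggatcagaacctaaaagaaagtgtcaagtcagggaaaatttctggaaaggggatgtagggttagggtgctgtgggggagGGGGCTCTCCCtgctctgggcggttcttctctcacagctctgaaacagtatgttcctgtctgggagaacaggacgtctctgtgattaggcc
C3: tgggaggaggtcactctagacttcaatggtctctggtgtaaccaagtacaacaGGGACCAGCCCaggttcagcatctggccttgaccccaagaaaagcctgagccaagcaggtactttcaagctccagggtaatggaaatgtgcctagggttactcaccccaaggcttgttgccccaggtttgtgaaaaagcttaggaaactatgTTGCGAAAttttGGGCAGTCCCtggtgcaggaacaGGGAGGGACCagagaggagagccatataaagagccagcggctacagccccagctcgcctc

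The C1qb window is chr4:136886151-136886450, the C1qc window chr4:136892865-136893164 and the C3 window chr17:57228087-57228386, each printed 5′ to 3′ on the minus strand. The motifs searched on both strands were GGG and CC with any 5 bases between them for NF-kB, found in 50.8% of 32851 promoter windows of the same length, AGGAAG for ETS factors (35.4%), TTGCNNAA for C/EBP factors (10.8%), GAAA, any 2 bases and GAAA for interferon-stimulated elements (3.4%) and GNACA, any 3 bases and TGTNC for the glucocorticoid response element (0.5%). C1qb held an NF-kB match at bases 60 to 70, where matches overlap, and ETS matches at bases 199 to 204 and 290 to 295. C1qc held ETS matches at bases 57 to 62 and 94 to 99 and overlapping NF-kB matches at bases 210 to 220. In C3 a C/EBP match stood at bases 206 to 213, with NF-kB matches at 54 to 64, 218 to 227 and 241 to 250. None of the 3 windows held a match to the glucocorticoid or interferon motif, nor did the window of C7, which held no match to any. A match is a description of these letters only.

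**Figure D1:**
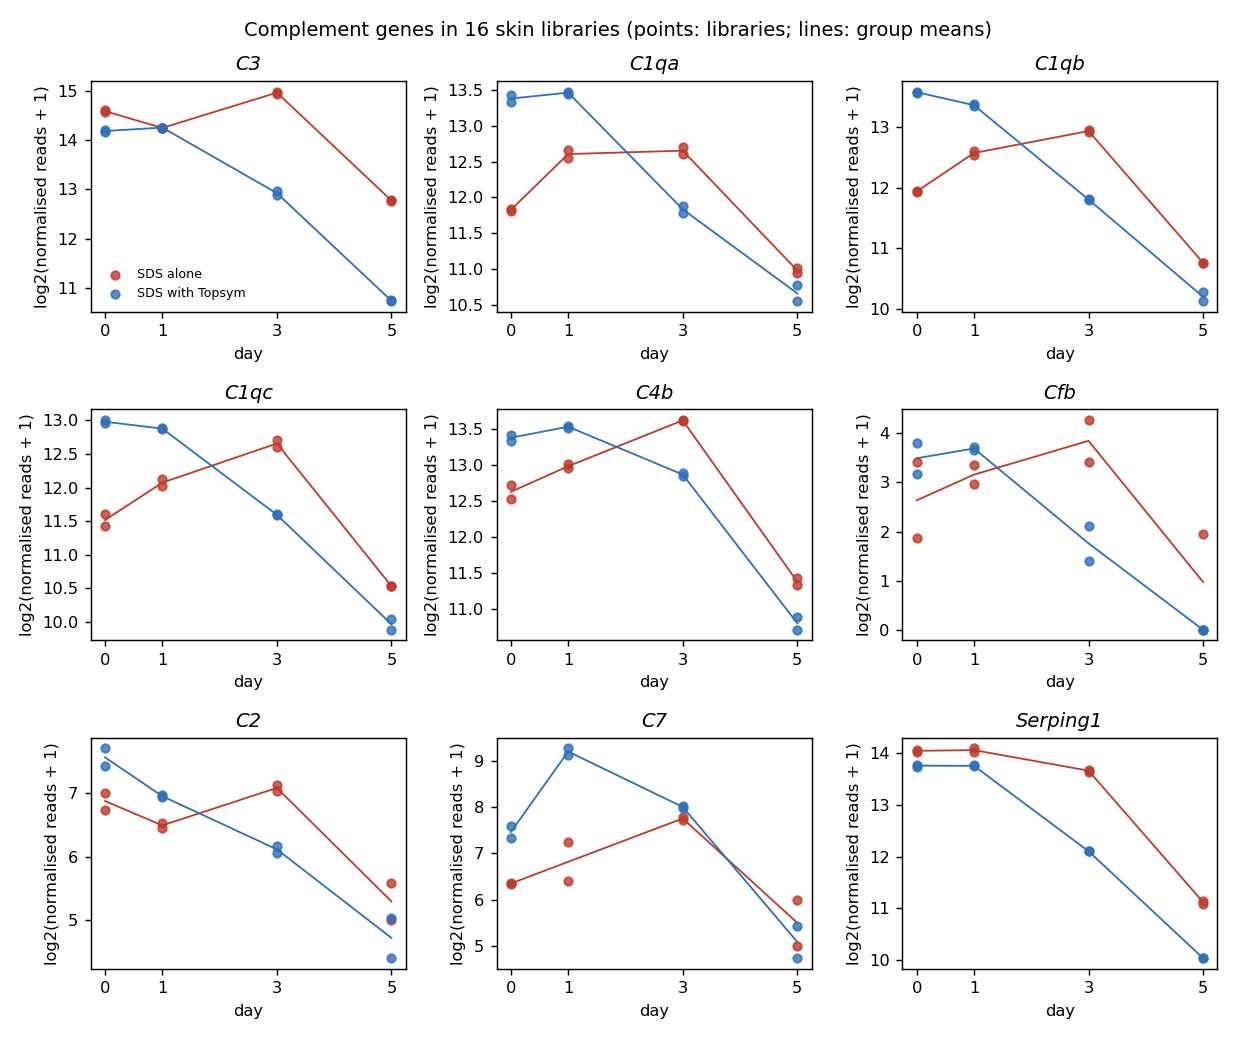
Each panel plots 1 complement gene as log2(normalised reads + 1) against day, with 1 point per library, 2 libraries per group and lines through group means, in red for SDS alone and in blue for SDS with Topsym. C1qa, C1qb, C1qc and C4b start higher with Topsym at days 0 and 1 and lie lower at days 3 and 5, whereas C3 and Serping1 show no such start.

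Without Topsym, 4 of the 9 genes were higher and 1 lower at day 1 than at day 0 at an adjusted p under 0.05, a threshold passed by 26.2% of all genes tested. At day 3, 6 were higher and 1 lower (background 49.6%). At day 5, 8 were lower and 0 higher than at day 0, where 66.5% of all genes were called and 35.8% were called lower. All 9 were lower at day 5 than at day 3 (background 63.4%, 34.5% lower). The median log2 change of the 9 genes was 0.47, 0.99 and -1.25 at days 1, 3 and 5, beside -0.031, -0.0054 and -0.094 over all genes tested.

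With Topsym no gene was called higher at day 3 by limma, whereas edgeR and DESeq2 on the recovered reads called C7 higher (adjusted p = 0.0221 and 0.0335). Against the day 0 group of that arm, 1 gene was higher and 1 lower at day 1 (background 40.8%), 7 were lower at day 3 (background 55.2%, 28.2% lower) and all 9 were lower at day 5 (background 70.2%, 37.5% lower). From day 3 to day 5, 8 of 9 were lower (background 62.2%, 35.1% lower). The medians were 0.07, -1.44 and -3.02 on the log2 scale (the last -2.83 with Cfb, which had 0 reads in that group, at its bound), beside -0.03, -0.041 and -0.078 over all genes. DESeq2 called 4 genes in place of 2 at day 1, C4b (0.15, adjusted p = 0.0285) and C2 (-0.62, adjusted p = 0.0221) being added.

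The classical pathway starts with C1q, and its 3 chains followed similar courses that differed in size. C1qa stood at 3596 and 3669 normalised reads in the 2 libraries of SDS day 0, 6497 and 5967 at day 1, 6675 and 6202 at day 3 and 1982 and 2066 at day 5. With Topsym it stood at 10288 and 11001, 11386 and 11136, 3785 and 3524 and 1751 and 1502 on the same days. The highest libraries were thus those of days 0 and 1 with Topsym, and the lowest those of day 5 in both arms. SDS days 1 and 3 overlapped, as did SDS day 0 with Topsym day 3. Without Topsym C1qa rose 1.72-fold by day 1 (log2 change 0.78 ± 0.068 (SE), adjusted p = 2.48e-07) and was 3.18-fold lower at day 5 than at day 3. With Topsym the day 1 change was 0.082 ± 0.068 (SE), adjusted p = 0.378, which did not pass, while day 3 was 2.91-fold and day 5 6.55-fold below day 0.

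C1qb, the second chain, read 3889 and 3966 at SDS day 0, 6274 and 5937 at day 1, 7968 and 7747 at day 3 and 1737 and 1725 at day 5. The libraries with Topsym read 12359.6 and 12179, 10471 and 10662, 3611 and 3549 and 1234 and 1112. No 2 groups that neighbour each other in the order of means overlapped. C1qb was 2.00-fold higher at SDS day 3 than at day 0 (log2 change 1.00 ± 0.05 (SE), adjusted p = 5.77e-11). With Topsym it fell by day 1 already (log2 change -0.22 ± 0.05 (SE), adjusted p = 0.00241) and was 10.5-fold lower at day 5. Of the 3 chains it was the only one called at day 1 with Topsym, a difference between the chains that was not itself tested.

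C1qc, the third chain, read 2763 and 3101, 4463 and 4160.1, 6708 and 6209 and 1478 and 1481 at days 0, 1, 3 and 5 of SDS. With Topsym the values were 7934 and 8225, 7464 and 7584, 3072 and 3109 and 1057 and 943. The 2 arms thus crossed between days 1 and 3, as for the other chains, and SDS day 0 overlapped Topsym day 3. Without Topsym C1qc rose 1.47-fold by day 1 (log2 change 0.56 ± 0.065 (SE), adjusted p = 5.66e-06) and further by day 3 (log2 change 1.14 ± 0.065 (SE), adjusted p = 2.77e-10). Scaled by exon length, C1qa made up 36.6 to 50.02% of the per-kb sum over all 16 libraries, C1qb 33.7 to 44.8% and C1qc 15.8 to 20.2%. Day 5 held the highest C1qa share in each arm, 45.2% without and 49.5% with Topsym on average, and the lowest C1qb share, 37.0% and 34.2%.

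Markers of macrophages, the cells known to make C1q in skin, moved along with it in part. The sum of the 3 chains was 1.59, 1.98 and 0.499 times that of SDS day 0 at days 1, 3 and 5, and 2.95, 2.80, 0.984 and 0.362 times with Topsym at days 0, 1, 3 and 5. The sum of 10 macrophage markers was 1.60, 4.13 and 0.525 times, and 1.89, 2.63, 1.34 and 0.281 times with Topsym. In normalised reads that sum ranged from 11569.5 to 11799.8 at SDS day 0, 48116 to 48304 at day 3 and 6128 to 6138 at day 5, and with Topsym from 21811 to 22327 at day 0, 15335 to 15939.5 at day 3 and 3197 to 3374 at day 5. At SDS day 3, 8 of 10 markers were higher than at day 0 and 0 lower. Cd14, a receptor also found on other myeloid cells, rose there from a mean of 223 to 11927, while Adgre1, which encodes F4/80, read 769 and 955. C1q over the marker sum was 0.868 and 0.928 in the SDS day 0 libraries, 0.442 and 0.419 at day 3, 1.37 and 1.44 at Topsym day 0, and 1.20 and 1.11 at Topsym day 5. Against 3 of the markers alone, Csf1r, Adgre1 and Mertk, the ratio was 2.19 and 2.25 at SDS day 0 and 2.85 and 2.77 at day 3. With Topsym this ratio was 4.03 and 4.23 at day 0 and 3.79 and 3.60 at day 5. From SDS day 0 to day 3 the ratio to these 3 markers rose, whereas the ratio to all 10 fell. The 3 markers were chosen after their values were seen, so their ratio is a description only. The part of macrophage number in the C1q values was not tested.

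**Figure D2:**
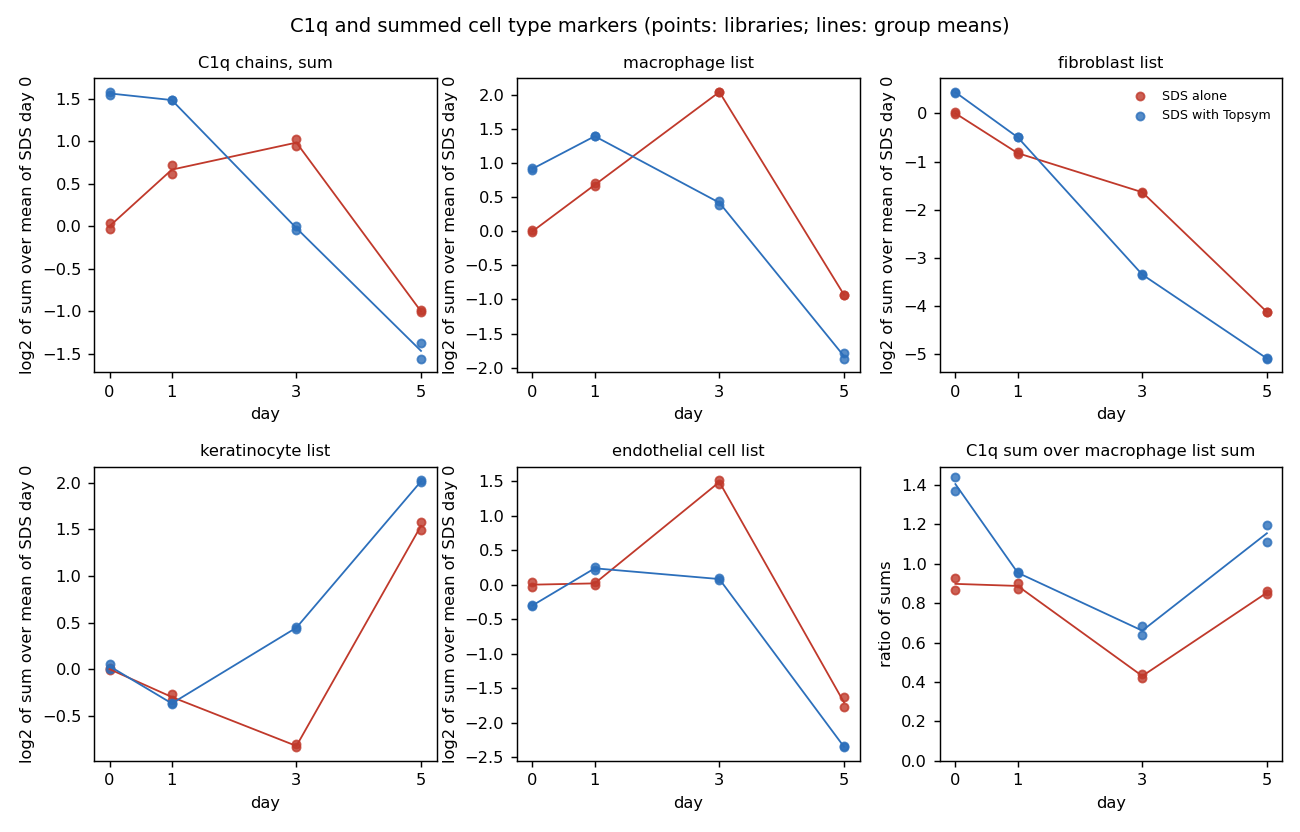
The first 5 panels plot, for each library, the log2 ratio of a summed level to the mean of SDS day 0, for the C1q chains and for the macrophage, fibroblast, keratinocyte and endothelial lists, and the last panel plots C1q over the macrophage sum. Points are libraries and lines join group means. At SDS day 3 the macrophage sum stands 4.13 times above day 0 and the C1q sum 1.98 times, so that the last panel has its lowest points there.

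C4b, the main mouse C4 gene, was high and low in many of the same groups as C1q. Its values were 5925 and 6816, 8275 and 7989, 12595 and 12691 and 2760.0 and 2589 at days 0, 1, 3 and 5 of SDS. With Topsym they were 10389 and 11009, 11781 and 12012, 7380.2 and 7636 and 1908 and 1682. The highest libraries were those of SDS day 3, and the lowest those of Topsym day 5. C4b rose 1.98-fold by SDS day 3 (log2 change 0.99 ± 0.066 (SE), adjusted p = 2e-09) and was 4.73-fold lower at day 5 than at day 3. With Topsym it was 1.43-fold lower at day 3 than at day 0 (log2 change -0.51 ± 0.066 (SE), adjusted p = 4.99e-06), a smaller fold than the 3.43-fold of C1qb, though that difference was not tested. C4b shares 34.6% of its 50-base stretches with its near copy C4a, and the sources used here do not give how reads on them were counted. C4a itself read 87.5 normalised reads at SDS day 0 and 58.1 at Topsym day 5.

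C2, the protease that joins C4b in the convertase, was expressed far lower. It read 106 and 127 at SDS day 0, 91.3 and 86.5 at day 1, 139 and 129 at day 3 and 46.9 and 31.2 at day 5, and 169.9 and 206, 124 and 121, 65.5 and 71.1 and 20.2 and 32.0 with Topsym. The day 5 libraries were the lowest, and those of the 2 arms overlapped there. Without Topsym C2 did not pass at day 1 (-0.38, adjusted p = 0.353) or day 3 (0.21, adjusted p = 0.567) and was 2.98-fold lower at day 5 (-1.58 ± 0.27 (SE), adjusted p = 8.41e-05). With Topsym it was 2.76-fold lower at day 3 (-1.44 ± 0.27 (SE), adjusted p = 0.000248) and 7.22-fold lower at day 5. In GENCODE M21, 42.8% of the exon bases of C2 and 79.5% of those of Cfb are also exons of Gm20547, a model that joins both genes on the same strand, and Gm20547 is not analysed here. The sources used here do not give whether the authors' annotation held that model or how shared bases were counted. The levels of C2 and Cfb may be too low, by an amount that cannot be read from these files.

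C3, on which all pathways meet, peaked at SDS day 3. It read 25101 and 24250.4 at SDS day 0, 19423 and 19539 at day 1, 32535 and 31518 at day 3 and 6920.0 and 7072 at day 5. With Topsym it read 18859.5 and 18429.9, 19584 and 19554, 7591 and 7949 and 1688 and 1713. The day 1 groups of the 2 arms had means of 19481 and 19569, the closest pair, and Topsym day 5 was lowest. Without Topsym C3 was 1.27-fold lower at day 1 than at day 0 (-0.34 ± 0.039 (SE), adjusted p = 4.87e-06), 1.30-fold higher at day 3 (0.38 ± 0.039 (SE), adjusted p = 4.9e-07) and 3.53-fold lower at day 5. With Topsym it did not pass at day 1 (0.07, adjusted p = 0.174) and was 2.40-fold lower at day 3 and 11.0-fold lower at day 5. Over the same days without Topsym, the summed fibroblast markers were 0.564, 0.322 and 0.0575 times the level of day 0, so that C3 and these markers moved apart at day 3. Their part in the C3 values was not tested.

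Cfb, the partner of C3 in the alternative convertase, was close to the limit of detection. It had 15, 18, 32 and 2 reads in the 2 libraries together at days 0, 1, 3 and 5 of SDS, and 24, 30, 7 and 0 with Topsym. In normalised reads the libraries of SDS day 3 stood at 18.3 and 9.72 and those of Topsym day 3 at 1.64 and 3.35, with no overlap. All neighbouring groups in the order of means overlapped. Cfb passed between SDS days 5 and 3 (-2.88 ± 0.75 (SE), adjusted p = 0.00333), though without SDS day 5 replicate 2 the adjusted p was 0.0505. With 0 reads at Topsym day 5, a floor of 3 reads over the group puts it 3.93-fold or more below the mean of Topsym day 0. That bound takes the day 0 mean as exact and each read as 1 count, and it would be smaller if mates were counted apart. The fitted comparison of these 2 groups passed (adjusted p = 0.000598).

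C7, which acts late in the cascade, had a course of its own. It read 81.0 and 80.1 at SDS day 0, 151 and 83.1 at day 1, 219 and 212 at day 3 and 62.6 and 31.2 at day 5. With Topsym it read 159.8 and 193, 618 and 563, 254 and 259 and 42.4 and 25.6. Topsym day 1 held the highest libraries, 2.30-fold above the next group, and the day 5 libraries of the 2 arms overlapped. Without Topsym C7 rose 2.67-fold by day 3 (1.41 ± 0.32 (SE), adjusted p = 0.00142). At day 5 it was 1.72-fold lower than at day 0 (-0.85 ± 0.32 (SE), adjusted p = 0.0263), a call that was lost without either library of SDS day 0 (adjusted p = 0.0847 and 0.0785) or without SDS day 5 replicate 2 (log2 change -0.36, adjusted p = 0.344). With Topsym it rose 3.35-fold by day 1 (1.74 ± 0.32 (SE), adjusted p = 0.000297), did not pass at day 3 (0.54, adjusted p = 0.16) except with edgeR and DESeq2, with no overlap of the libraries, and was 5.19-fold lower at day 5. By limma C7 was the 1 member called higher at day 1 than at day 0 of the Topsym arm, to which DESeq2, or leaving out any 1 library of SDS day 0 or Topsym day 5 (adjusted p from 0.0421 to 0.0429), added C4b.

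Serping1, the inhibitor of the C1 proteases, started high and did not rise. Its libraries read 16706 and 17059 at SDS day 0, 17421 and 16658 at day 1, 13110.3 and 12784 at day 3 and 2272 and 2179.6 at day 5. With Topsym they read 13645 and 14053, 13703 and 13905, 4412 and 4394 and 1053 and 1049.6. Days 0 and 1 overlapped in each arm. Without Topsym Serping1 was 1.30-fold lower at day 3 (-0.38 ± 0.041 (SE), adjusted p = 6.72e-07) and 7.58-fold lower at day 5 (-2.92 ± 0.041 (SE), adjusted p = 2.68e-18). With Topsym the folds were 3.15 at day 3 and 13.2 at day 5. The sum of 10 fibroblast markers was lower as well, at 0.322 times that of SDS day 0 at SDS day 3 and 0.0983 times at Topsym day 3. At SDS day 1, however, that sum was 0.564 times, while the change of Serping1 did not pass (0.013, adjusted p = 0.869). At Topsym day 0 the sum was 1.35 times that of SDS day 0, while Serping1 was 1.22-fold lower. The part of fibroblasts in the Serping1 values was not tested.

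Set side by side per kb of exon, Serping1 was the highest of the 9 at SDS day 0, with 7261 normalised reads per kb, followed by C3 (4798), C1qb (3609.8), C1qa (3492), C1qc (1519) and C4b (1119). C7 (30.1), C2 (30.1) and Cfb (2.17) lay far below. At Topsym day 0 the order had changed, with C1qb (11277) and C1qa (10235) above Serping1 (5957) and C3 (3625). At Topsym day 5 C1qa (1564) and C1qb (1078) stood above C1qc (518), Serping1 (452), C3 (331) and C4b (315).

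Compared day by day, the 2 arms differed first in one direction and then in the other. At day 0, 5 of the 9 genes were higher with Topsym and 2 lower, where 22% of all genes were called. At day 1, 5 were higher and 1 lower (background 9.8%). At day 3, 8 were lower and 0 higher (background 43.8%, 22.9% lower), and at day 5, 6 were lower and 0 higher (background 46.8%, 24.2% lower). The number of all genes called at day 1 was 1881, and it was 999 without SDS day 1 replicate 1 and 919 and 926 without either library of Topsym day 1, while the members called stayed at 6.

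**Figure D3:**
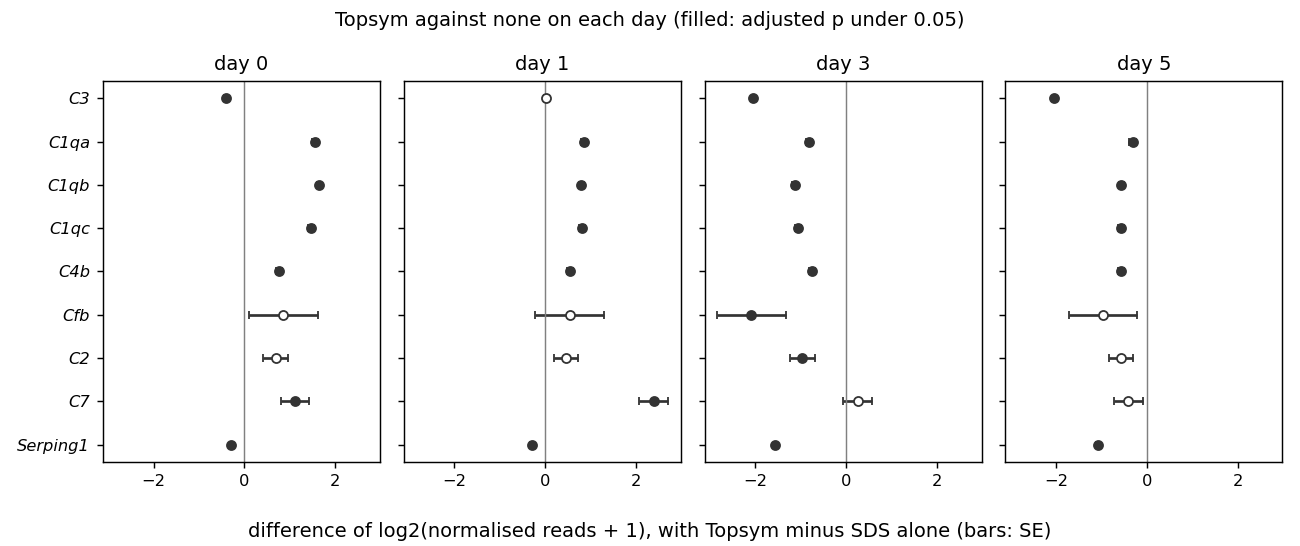
For each gene and day the point is the difference of log2(normalised reads + 1), Topsym minus SDS alone, with its SE as the bar, filled where the adjusted p is under 0.05. The C1q genes and C4b lie to the right of 0 at days 0 and 1 and to the left at days 3 and 5, and C3 lies near -2.04 at both late days.

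At day 0 the C1q chains were 2.93-fold (C1qa, 1.55 ± 0.068 (SE), adjusted p = 5.5e-11), 3.12-fold (C1qb) and 2.76-fold (C1qc) higher with Topsym. C4b was 1.68-fold higher. C7 was 2.19-fold higher (1.11 ± 0.32 (SE), adjusted p = 0.0178), but did not pass without either library of SDS day 0 (adjusted p = 0.0799 and 0.0775) or without Topsym day 0 replicate 2 (0.121). C3 was 1.32-fold lower and Serping1 1.22-fold lower. The same day 0 libraries with Topsym held less RNA of other tissues: the summed skeletal muscle markers were 0.357 times and the adipocyte markers 0.429 times the level of SDS day 0, with 10 of 10 and 9 of 10 markers lower. Of 10 macrophage markers, 9 were higher there and 0 lower, with a median log2 difference of 0.88 and a sum 1.89 times that of SDS day 0. Cd5l, at 275 ± 9.38 beside 15.3 ± 4.58, and Aif1, at 712 ± 19.5 beside 149 ± 6.08, differed by more than that median. The part of these tissues in the day 0 differences was not tested.

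At day 1 C7 was 5.05-fold higher with Topsym (2.39 ± 0.32 (SE), adjusted p = 8.61e-05), and the C1q chains were 1.81-, 1.73- and 1.75-fold higher in the order C1qa, C1qb and C1qc. C4b was 1.46-fold higher (0.55 ± 0.066 (SE), adjusted p = 3.03e-05) and Serping1 1.23-fold lower (-0.30 ± 0.041 (SE), adjusted p = 9.88e-05). C3 differed by 0.0065 on the log2 scale (adjusted p = 0.968), with a sign that TMM scaling and edgeR turned. Of 10 macrophage markers, 6 were higher with Topsym at day 1 and 0 lower, and skeletal muscle markers were higher in 8 of 10.

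At day 3 the differences of the 6 members with many reads were led by C3, 4.12-fold lower with Topsym (-2.04 ± 0.039 (SE), adjusted p = 4.64e-15), and Serping1, 2.94-fold lower (-1.56 ± 0.041 (SE), adjusted p = 8.04e-14). C1qb was 2.19-fold lower, C1qc 2.09-fold, C1qa 1.76-fold and C4b 1.68-fold. C2 was 1.96-fold lower (-0.96 ± 0.27 (SE), adjusted p = 0.00838), a call lost without SDS day 3 replicate 1 (adjusted p = 0.0539) or Topsym day 3 replicate 1 (0.0558). Cfb passed as well, from 32 and 7 reads (-2.09 ± 0.75 (SE), adjusted p = 0.0338), but did not pass with no filter on low values (adjusted p = 0.0726), nor without SDS day 3 replicate 1 (0.197) or either library of Topsym day 3 (0.181 and 0.0564). C7 alone did not pass (0.25, adjusted p = 0.574). Beside these, 9 of 10 macrophage, 10 of 10 endothelial and 10 of 10 fibroblast markers were lower with Topsym at day 3 and 10 of 10 keratinocyte markers were higher. Their part in the member differences was not tested.

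At day 5 C3 was 4.11-fold lower with Topsym (-2.04 ± 0.039 (SE), adjusted p = 2.93e-15) and Serping1 2.12-fold lower (-1.08 ± 0.041 (SE), adjusted p = 6.99e-12). C1qa, C1qb, C1qc and C4b were 1.24-, 1.48-, 1.48- and 1.49-fold lower. C2 (-0.57, adjusted p = 0.0979), C7 (-0.41, adjusted p = 0.304) and Cfb (2 and 0 reads, adjusted p = 0.312) did not pass, and the calls of C2 and C7 turned on single libraries. Without SDS day 5 replicate 1 the C7 difference turned to 0.077, and without replicate 2 C7 passed (-0.91, adjusted p = 0.0317), as did C2 (-0.86, adjusted p = 0.0268). C2 passed without Topsym day 5 replicate 2 as well (adjusted p = 0.0185), so that 6 to 8 members were called with each library left out. Fibroblast markers were lower in 9 of 10 and macrophage markers in 8 of 10, while of 10 keratinocyte markers 4 were higher and 5 lower.

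Whether the course itself differed between the arms was tested as the difference of the 2 changes from day 0. It rests on the day 0 group with Topsym, whose treatment is not given. To day 1, 1 gene had a higher change and 3 a lower change with Topsym, where 17.2% of all genes were called. To day 3 the change was lower for 8 of 9 genes (background 39%, 19.5% lower), and to day 5 for 8 of 9 (background 34.9%, 17.7% lower). C1qb had the largest of the day 3 differences among the well-measured genes, -2.78 ± 0.071 (SE), adjusted p = 9.84e-14, followed by C1qc and C1qa at -2.53 and -2.37. C3 (-1.64), C4b (-1.50) and Serping1 (-1.27) moved apart less on that scale. The size of Cfb, -2.94, was not called with no filter (adjusted p = 0.0798), nor without SDS day 0 replicate 1, SDS day 3 replicate 1, Topsym day 3 replicate 1 or any 1 library of Topsym days 0 and 1 (adjusted p from 0.0509 to 0.174). C7 did not pass to day 1 (1.27, adjusted p = 0.0631) by limma. It passed there with edgeR (adjusted p = 0.00723), DESeq2 (0.00226), a pseudocount of 4 (0.0414) and a replicate block (0.0423), and without SDS day 1 replicate 1 or any 1 library of day 5 (0.0241 to 0.0359). To day 3 it did not pass either (-0.86, adjusted p = 0.147), but did with edgeR (0.028) and DESeq2 (0.022). To day 5 C7 passed (-1.53 ± 0.45 (SE), adjusted p = 0.014), but not without SDS day 5 replicate 1 (-1.04, adjusted p = 0.0677) or Topsym day 5 replicate 2 (-1.17, 0.0532), while C2 to day 5 was lost without 4 single libraries, SDS day 0 replicate 1, SDS day 5 replicate 1, Topsym day 0 replicate 2 and Topsym day 5 replicate 1 (adjusted p from 0.0581 to 0.0706).

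The other complement genes were counted from 5 lists of 50 genes by their place in the cascade, of which 47 were in the table and 38 passed the filter. At SDS day 3, 18 of the 38 were higher than at day 0 and 4 lower, where 49.6% of all genes were called, with a median log2 change of 0.57 beside -0.0054 over all genes. By SDS day 5, 6 were higher and 24 lower (background 66.5%, 35.8% lower). With Topsym, 9 were higher and 13 lower at day 3 (background 55.2%, 28.2% lower), and 4 higher and 25 lower at day 5 (background 70.2%, 37.5% lower). The share called in either direction at day 3 with Topsym was thus near the background, and at day 5 with Topsym not far above it.

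Of the complement receptors, 7 of 8 measured were higher at SDS day 3 than at day 0 and 1 was lower (background 49.6%), with a median of 3.15. C5ar1, the receptor of the anaphylatoxin C5a, went from 230.2 ± 8.26 to 3114 ± 145 normalised reads (log2 change 3.75 ± 0.19 (SE), adjusted p = 5.01e-11). Itgam and Itgb2, the chains of complement receptor 3, rose by 3.46 and 2.14 on the log2 scale, and Cd93, a surface protein first described as a C1q receptor, by 3.55. At day 3 with Topsym, C5ar1 stood at 492 ± 40.2 and Itgam at 445 ± 6.59. There 7 of 8 receptors were lower with Topsym than without (background 43.8%, 22.9% lower). Their change from day 0 to day 3 was lower with Topsym for 8 of 8 receptors (background 39%, 19.5% lower). Neutrophils also carry these receptors, and their summed markers were 220.2 times the level of SDS day 0 at SDS day 3 and 8.96 times at Topsym day 3. The sum was 914 times that level at SDS day 5. Yet 7 of 9 measured neutrophil markers were lower there than at SDS day 3, and 2 were higher. Against day 0 of the arm, 9 of 9 were higher at SDS day 3 (background 49.6%). At Topsym day 3, 5 were higher and 0 lower (background 55.2%). The list includes S100a8 and S100a9, and Ly6g had 0 reads in every group but SDS day 3. A sum follows its highest genes, so these folds do not measure neutrophil number. All 8 receptors were lower at SDS day 5 than at day 3 (background 63.4%, 34.5% lower). The part of neutrophils in the receptor values was not tested.

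Of the 10 starters measured, 5 were higher at SDS day 3 and 0 lower, near the background of 49.6%. Ptx3, a pentraxin that binds C1q, went from 35.0 ± 7.16 to 1343 ± 81.5 (5.23 ± 0.75 (SE), adjusted p = 2e-05), and with Topsym read 108 ± 7.74 at day 3. C1ra and C1s1, the C1 proteases, stood at 4252 ± 4.94 and 2712 ± 124 at SDS day 0 and fell by 1.94 and 1.81 on the log2 scale by day 5. With Topsym C1ra fell by 3.53 and C1s1 by 3.21. Colec11, a collectin of the lectin pathway, read 29.7 ± 2.17 and 5.69 ± 4.03 at SDS days 0 and 5 (-2.34, adjusted p = 0.00274), and 19.1 ± 8.58 at Topsym day 0 and 0 at Topsym day 5 (adjusted p = 8.97e-06).

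Cfd, factor D of the alternative pathway and a gene of fat cells also known as adipsin, and Cfp, properdin, which steadies that convertase, took different courses. Cfd read 10664 ± 551, 16282 ± 726 and 793 ± 61.4 at days 0, 3 and 5 of SDS, and 4954 ± 44.3, 13653 ± 319 and 1659 ± 16.4 with Topsym. It was thus higher at day 3 than at day 0 in both arms. Without Topsym the summed adipocyte markers lay at 49884 to 52659 normalised reads at day 0 and at 58220.3 to 58595 at day 3. With Topsym they lay at 21764 to 22221 at day 0 and higher, at 38123 to 38563, at day 3, where 8 of 10 markers were higher and 2 lower. Their part in the Cfd values was not tested. Cfp read 1246 ± 102, 2736 ± 46.5 and 388 ± 45.2 without Topsym and 3639.9 ± 220.2, 864 ± 41.9 and 224 ± 5.27 with it.

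In the terminal pathway C6 rose by 1.81 on the log2 scale at SDS day 3, to 645 ± 35.0, and fell by 2.89 by day 5 with Topsym. C9 had few reads, and fell from 37.6 ± 7.85 to 4.16 ± 2.36 by day 3 without Topsym. Hc, which encodes C5, also had few reads, at 0.813 ± 1.15 and 12.0 ± 2.73 on days 0 and 3 with Topsym (log2 change 2.99 ± 0.80 (SE), adjusted p = 0.00463).

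Among 13 measured regulators, 3 were higher and 2 lower at SDS day 3, a smaller share than the background of 49.6%. Cd55, which speeds the decay of convertases on cells, fell by 0.88 at SDS day 3 and by 3.22 at Topsym day 5, from 2505 ± 242 to 273 ± 81.2. Cpn1, a subunit of carboxypeptidase N, which trims anaphylatoxins, was low throughout and rose by day 5 in both arms, to 39.7 ± 30.0 and 32.9 ± 0.904. Susd4 and Csmd1, which carry complement control domains, had few reads and fell by 3.51 and 3.20 by day 5 with Topsym. Susd4 went from 41.9 ± 16.6 to 6.05 ± 8.56 there, with its day 5 libraries at 0 and 12.1. Csmd1 went from 42.3 ± 12.7 to 3.61 ± 0.593.

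**Figure D4:**
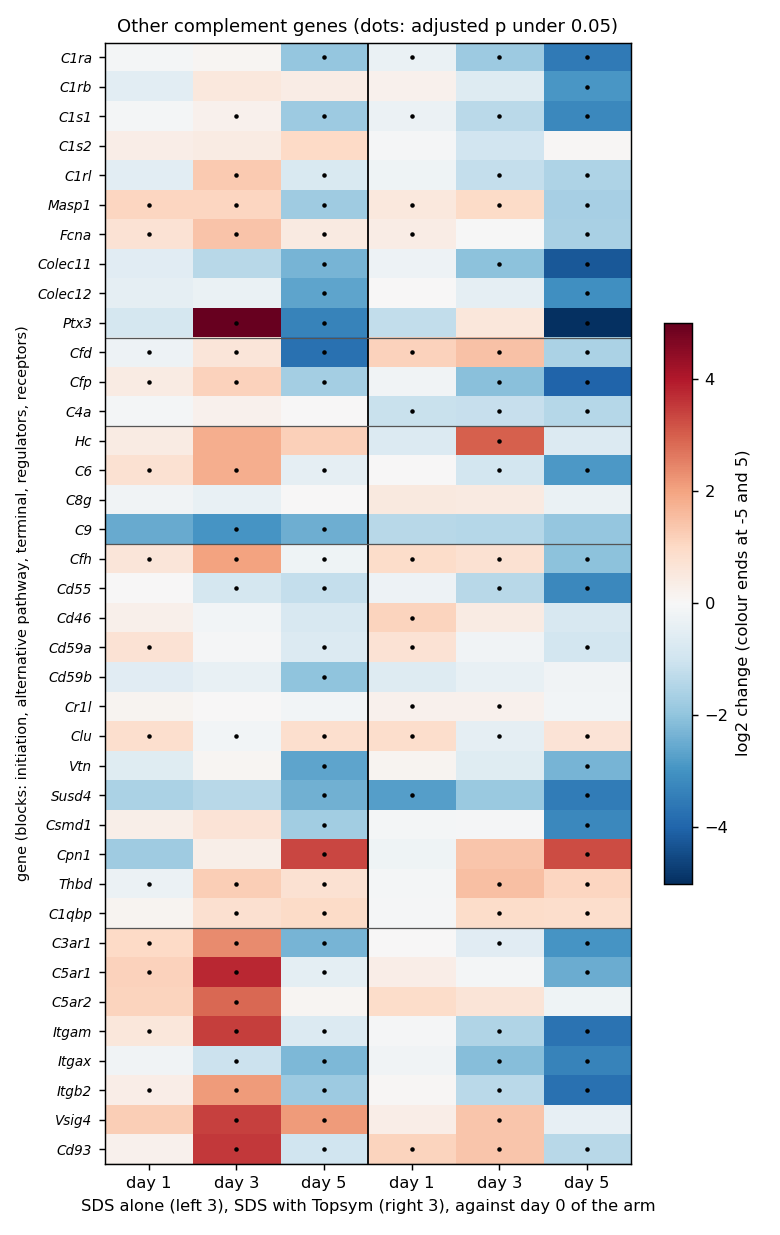
Rows are the 38 other complement genes that passed the filter, in blocks of initiation, alternative pathway, terminal pathway, regulators and receptors, and columns are the 6 comparisons with day 0 of the same arm. Colour gives the log2 change, with the scale ending at -5 and 5, and dots mark an adjusted p under 0.05. The receptor block is red at SDS day 3 for the 7 of 8 that were higher, where 49.6% of all genes were called in either direction. In the column of day 5 with Topsym 25 of 38 were called lower, beside 37.5% of all genes.

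As a description over all 16 libraries, which share the day and depth structure described above, the log2 values of member pairs had Pearson r between 0.595 (C3 with C7) and 0.996 (C1qb with C1qc). Among 11791 genes compared, those most like C1qb and C1qc were Cfp (0.993 and 0.992), Ggt5 and Lyve1, and those most like C1qa were Lyve1 (0.977), Ggt5 and Cfp. C4b was nearest to Lipa (0.993), F13a1 and Mrc1, and Serping1 to C1qtnf7 (0.994), Fn1 and Dcn. C3 was nearest to C1qtnf1 (0.986), C1ra and Olfml1. C2 had Ap2b1 (0.974), Loxl3 and Myo1f, and Cfb had Thnsl2 (0.959), Cd84 and Pacs2. The highest value for C7, 0.898 with Clec10a, followed by Stard8 and Heatr5a, was the lowest first neighbour among the 9.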

How the data were processed

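RNA of 16 libraries was extracted with RNeasy Micro and prepared with Agilent's strand-specific SureSelect kit, per the labels' protocols. Per the submitters' processing notes, the authors used Trim Galore 0.6.7, HISAT2 2.2.1 on mm10, featureCounts 2.0.3 and DESeq2 2.11.40.8; strand setting and annotation are not given in the sources used here. The deposited signal is the read count over a size factor: dividing by the smallest step gave whole reads for 100% of values (tolerance 1e-04 reads), with a scaling equal to median-of-ratios scaling, and 72.6% of recovered counts from 1 to 20 were even, so mates may be counted apart and intervals from reads cover counting error only. Chi-square per degree of freedom within groups was 3.13 to 6.99, or 1.57 to 3.49 if each pair of mates is 1 count, above sampling noise either way.

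Genes with at least 10 in at least 2 libraries were fitted as log2(value + 1) with limma 3.58.1 (trend, R 4.3.3), 8 groups in 1 fit with 8 residual degrees of freedom, and p-values were adjusted over all 19189 genes by Benjamini and Hochberg. A change on this scale understates that of low genes. Folds in the text are ratios of group means. Other settings tried were TMM factors, no filter on low values, a pseudocount of 4, a replicate block, edgeR 4.0.16 and DESeq2 1.42.0 on recovered reads, and each library left out. The fit was tested on simulated data. Members, lists and marker genes were chosen with earlier results of these data known. All 9 members are described, with at most 4 other genes per list, those with the largest change past the threshold. Likeness was compared among genes with a mean of at least 100, without predicted models. Motif and exon sharing used GENCODE M21 and RefSeq tables of GRCm38.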

Additional observations from a re-analysis of the deposited data

Results flagged for a closer look

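The change from day 0 differed between the arms in 20 of the 27 tests of that difference over the 9 genes and 3 days, by the same limma fit and adjustment over all genes. Of all genes tested, 17.2%, 39% and 34.9% were called for the changes to days 1, 3 and 5. The 27 tests share the day 0 groups, so they are not independent of each other. Values are the log2 change with Topsym minus that without. To day 1 the difference was 0.41 for C3, whose level fell without Topsym and did not pass with it, and -0.70 for C1qa, -0.85 for C1qb and -0.66 for C1qc, which rose without Topsym.

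To day 3 it was -1.64 for C3, -2.37 for C1qa, -2.78 for C1qb, -2.53 for C1qc and -1.50 for C4b, all of which rose without Topsym and fell with it. It was -2.94 for Cfb, from few reads, and -1.65 for C2, and it was -1.27 for Serping1, a gene that fell in both arms.

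To day 5 it was -1.64 for C3, -1.87 for C1qa, -2.21 for C1qb, -2.03 for C1qc, -1.33 for C4b, -1.26 for C2, -1.53 for C7 and -0.80 for Serping1. All of these genes were lower at day 5 than at day 0 in both arms. At day 0 itself the C1q chains and C4b were higher with Topsym, so the size of these differences holds the day 0 difference as well.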

How the results depend on the processing

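Of 135 results of single genes, 102 passed in the main analysis and 107 kept their direction and side of the threshold under all settings run. The 2 calls lost other than by leaving out a library were those of Cfb given above. Calls gained were C2 at Topsym day 1 and between the arms at day 0 (0.70 and 0.69) and C7 at Topsym day 3 and for the difference of changes to days 1 and 3, each with both edgeR and DESeq2, C4b at Topsym day 1 with DESeq2, and Cfb at Topsym day 3 (-1.15) and C7 for the difference to day 1 with a pseudocount of 4. The number of members called at day 1 with Topsym went from 2 to 4 with DESeq2 and ranged from 2 to 4 with each library left out, and the number of all genes called between the arms at day 1 from 919 to 2231. The sign of C3 between the arms at day 1 turned with TMM (-0.013) and edgeR (-0.0121). With each library left out, results that changed sign ranged, on the log2 scale, from -0.249 to 1.294 for Cfb and -0.0192 to 0.0454 for Serping1 at SDS day 1, from -0.1152 to 0.5159 and -0.0259 to 0.0166 at Topsym day 1, from -1.094 to 0.4494 and -0.05 to 0.0146 for the difference of these changes, and from -0.9063 to 0.0767 for C7 between the arms at day 5. None of these passed in the main analysis. TMM moved the median change of all genes by at most 0.052.

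Replicate numbers showed no sign of pairing the samples: over 28 pairs of groups the deviations of same-numbered libraries correlated between -0.03 and 0.03. A pairing that touched few genes would not show in this check. With a replicate block, as with those settings, C7 passed for the difference of changes to day 1 (1.27, adjusted p = 0.0423), which took that count from 4 to 5, and no other call of a member changed.

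With 2 libraries a group, a lone library left after leaving out 1 is assumed to vary like the other groups. Depth limits Cfb, with 0 to 32 reads a group, and C2 and C7 at day 5, with 30 to 66. Results on the change with Topsym rest on a day 0 group whose treatment is not given. The exon bases that C2 and Cfb share with another model, and the stretches that C4b shares with C4a, limit what their levels mean.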
